A study of Mus musculus with 18 samples.

Results

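The mature microRNAs (miRNAs) of the imprinted Dlk1-Dio3 domain on mouse chromosome 12 were followed through sorted brain cell fractions. A list of 48 of its mature miRNAs was matched by name to the miRNA rows of the count table. All 48 had a row, and 46 of them had at least 1 count in some library. miR-654-3p and miR-679-5p had no count and were dropped. The table held 203513 features in all, of which 86922 were counted, and 1978 mature miRNAs, of which 1054 were counted. Another 69 mature miRNAs of the same hairpins and their neighbours were not on the list, and 40 of them were counted.

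Small RNA was sequenced from the brains of 10-month-old mice on a C57BL/6 background. Homozygous Atxn2-CAG100-KIN mice (KIN), which carry an expanded CAG repeat in their own Atxn2 gene, were set against wild-type (WT) littermates from heterozygous matings. Astrocytes, microglia and neurons were taken in turn from a single dissociated brain with magnetic beads, microglia by CD11b, astrocytes by ACSA-2, and neurons as the cells left over after other types, including CD31-bearing cells, had been bound. This gave 6 groups (3 fractions in each of 2 genotypes) with 3 libraries each, 18 in all. Each library was labelled as a biological replicate, and the p-values below measure the spread between these samples. In such bulk fractions, fewer cells of a type and less RNA per cell cannot be told apart.

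miRNAs are cut from hairpin transcripts, which can yield a mature miRNA from the 5′ arm (5p) and from the 3′ arm (3p), and they recognise their targets mainly through the seed near their 5′ end. The Dlk1-Dio3 domain is imprinted: the noncoding RNAs Meg3, Rian and Mirg, the snoRNAs within Rian and the miRNAs are expressed from the chromosome inherited from the mother, and the protein-coding genes Dlk1, Rtl1 and Dio3 mainly from that inherited from the father. In the adult brain the miRNAs of this domain are known chiefly from neurons, where miR-134 acts in dendrites, and those lying opposite to Rtl1, such as miR-127 and miR-136, can direct the cleavage of its mRNA.

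The 46 miRNAs came from 42 hairpin genes on the plus strand, in 3 segments (GRCm39, GENCODE annotation). The Meg3-Rtl1 segment, from Mir770 to Mir136 at chr12:109530126-109561822, held 13 of them. The Rian segment, from Mir341 to Mir370 at chr12:109577934-109584770, held 2. The miR-379/miR-410 segment, from Mir379 to Mir410 at chr12:109675494-109710229, held 31. Of these miRNAs, 1 lay within Meg3, 11 within Mirg, 7 within B830012L14Rik and 18 between annotated genes, and 8 lay within Rtl1 on its opposite strand, 1 of them also within Rian, which alone held 1 more. The sequences below, taken from the deposited table, belong to the most abundant members and to those with the largest differences. The seed (bases 2 to 8) is in capitals, and the prefix mmu, for mouse, is left out of the names elsewhere.
mmu-miR-127-3p: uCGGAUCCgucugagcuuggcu
mmu-miR-434-3p: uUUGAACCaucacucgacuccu
mmu-miR-136-5p: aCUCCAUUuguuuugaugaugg
mmu-miR-136-3p: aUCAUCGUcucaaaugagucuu
mmu-miR-541-5p: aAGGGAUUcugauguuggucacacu
mmu-miR-369-3p: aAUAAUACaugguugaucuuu
mmu-miR-382-5p: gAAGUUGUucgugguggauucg
mmu-miR-376a-3p: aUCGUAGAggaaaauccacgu
mmu-miR-376b-3p: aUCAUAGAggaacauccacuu
mmu-miR-376c-3p: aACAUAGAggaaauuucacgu
mmu-miR-300-3p: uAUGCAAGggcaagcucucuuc
mmu-miR-381-3p: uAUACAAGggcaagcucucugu
mmu-miR-379-5p: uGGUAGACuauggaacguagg
mmu-miR-411-5p: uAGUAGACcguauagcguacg
mmu-miR-494-3p: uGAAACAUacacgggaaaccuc
Of the 48 listed miRNAs, 45 were found in the RefSeq miRNA table, all 45 with the same sequence. No seed was shared: the 46 members had 46 distinct seeds. Bases 3 to 8 were shared within 2 pairs, miR-379-5p with miR-411-5p and miR-376b-3p with miR-376c-3p. miR-300-3p and miR-381-3p lay 3 base edits apart, as did miR-376a-3p and miR-376b-3p, so reads with errors could be exchanged within these pairs. miR-299a-5p lay 1 edit from miR-299b-5p, which had no count. miR-127-3p lies at chr12:109559322-109559343 in Mir127 and miR-434-3p at chr12:109560999-109561020 in Mir434, both opposite to Rtl1. miR-376b-3p lies at chr12:109689942-109689962 in Mir376b and miR-494-3p at chr12:109681801-109681822 in Mir494, both between annotated genes. miR-541-5p lies at chr12:109708856-109708880 in Mir541, within Mirg.

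Library totals ran from 1211118 to 4316748 counts, with the neuronal libraries the smallest. Mature miRNAs made up between 5.05% and 10.3% of the counts in the astrocyte and microglia libraries and between 0.964% and 2.13% in the neuronal ones. WT replicate 2 stood apart from the other WT libraries in all 3 fractions. The labels of the fractions were set against marker miRNAs. The myeloid markers miR-142a and miR-223 summed to between 2835 and 5914 CPM, counts scaled to the library total, in microglia and to at most 377 elsewhere. The neuronal markers (miR-124, miR-128, miR-138, miR-132 and miR-129) summed to between 1078 and 3265 CPM in the astrocyte libraries but to between 54.5 and 244 in the neuronal ones, so the fraction labelled neurons held less of them than the fraction labelled astrocytes. Oligodendrocyte markers reached between 1770 and 5112 CPM in the astrocyte libraries. Counts of Xist lay between 1.27 and 2.13 CPM in KIN replicate 1 of each fraction and between 7.59 and 36.3 in the other libraries, whereas the study describes 2 male pairs and 1 female pair.

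The cluster was most abundant in the astrocyte fraction and least abundant in microglia. In CPM of the library total, its 46 miRNAs summed to 255, 623 and 312 in the astrocyte WT replicates 1, 2 and 3, and to 498, 445 and 273 in KIN. In microglia, WT libraries held 56.2, 24.2 and 71.7 CPM, against 10.2, 23.4 and 18.9 for KIN. In neurons, WT libraries held 47.9, 297 and 62.2 CPM, against 77.2, 44.5 and 56.9 for KIN. The microglia groups did not overlap, although WT replicate 2 at 24.2 lay just above KIN replicate 2 at 23.4, whereas the genotypes overlapped in both other fractions. As a share of mature miRNA counts, the cluster made up 0.505%, 0.75% and 0.513% in astrocyte WT and 0.481%, 0.487% and 0.324% in KIN. That share was 0.109%, 0.0476% and 0.12% in microglia WT and 0.0173%, 0.0277% and 0.0226% in KIN. In neurons it was 0.497%, 1.54% and 0.575% in WT and 0.363%, 0.335% and 0.355% in KIN. On this second scale each fraction had lower values in KIN than in WT without overlap, and the neuronal fraction was no longer below the astrocytes in WT. This scale also depends on the other mature miRNAs. In astrocytes, mature miRNAs made up 5.05%, 8.30% and 6.09% of all counts in WT and 10.3%, 9.13% and 8.43% in KIN. The cluster's mean CPM there was 397 in WT and 405 in KIN. In microglia and neurons the percentage of mature miRNA overlapped between genotypes. With 3 libraries a group, the smallest p of the exact permutation test is 0.1 (two-sided), so none of these separations can pass 0.05 on its own.

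**Figure D1:**
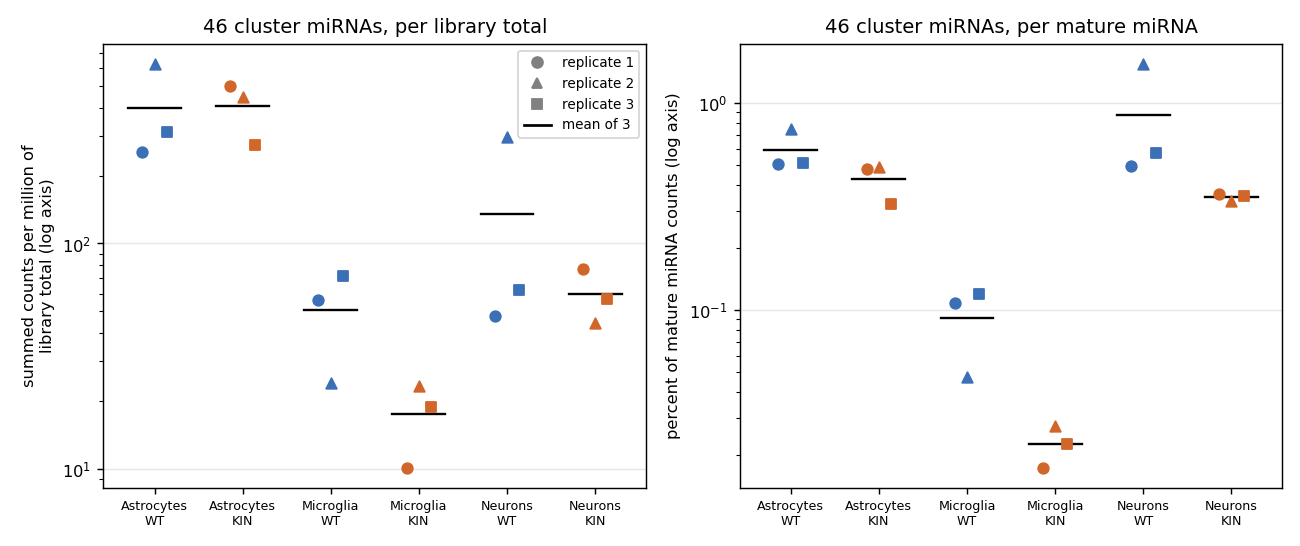
Summed level of the 46 cluster miRNAs in each of the 18 libraries, as CPM of the library total (left) and as percent of mature miRNA counts (right), both on log axes; symbols are replicates, blue is WT, orange is KIN and bars are means of 3. WT replicate 2 is the highest WT library in astrocytes and neurons (623 and 297 CPM) and the lowest in microglia (24.2 CPM).

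A few members carried most of the counts. The 10 with the highest mean CPM made up 71.2% of the cluster's counts, and their mature lengths lay between 21 and 25 bases. miR-127-3p alone made up 24.3% and miR-434-3p 13.4%. Both come from the Rtl1 region, and neither has a 7-base seed in common with another member. The next in order were miR-541-5p, miR-136-5p, miR-369-3p, miR-376a-3p, miR-300-3p, miR-136-3p, miR-382-5p and miR-381-3p, with mean levels between 5.08 and 9.87 CPM. Most other members were sparse. With 3 counts or fewer in each library taken as the floor, 6 of 46 members were at the floor in astrocyte WT and 7 in astrocyte KIN. In microglia 26 were at the floor in WT and 36 in KIN, and in neurons 25 and 27. miR-540-3p, miR-666-5p and miR-758-3p never exceeded 1 count in any library.

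**Figure D2:**
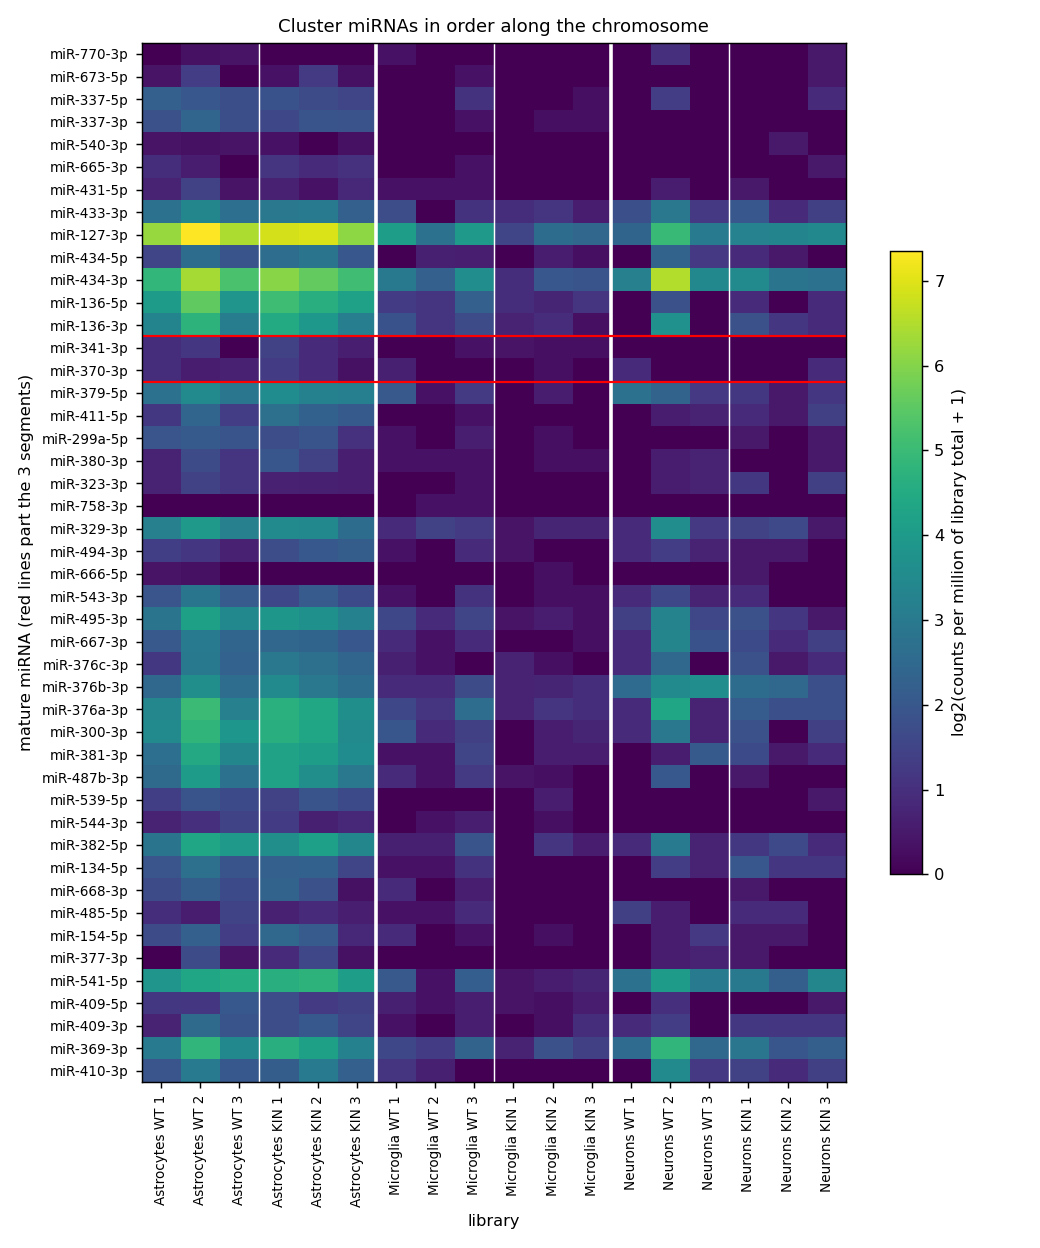
Level of each of the 46 members, log2(CPM of the library total + 1), with members in order along the chromosome (rows) and the 18 libraries in columns; red lines part the 3 segments. The brightest rows are miR-127-3p and miR-434-3p, and most rows are dark in microglia and neurons.

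Shares of the cluster's counts, which do not depend on how libraries were scaled, differed between fractions for some members. miR-127-3p made up between 23.4% and 28.9% of the cluster's counts over the 6 astrocyte libraries and between 8.62% and 20.4% over the 6 neuronal libraries. These ranges did not overlap. miR-136-5p made up between 4.28% and 7.34% in astrocytes but at most 1.45% in neurons. In the other direction, miR-376b-3p made up between 1.5% and 2.04% in astrocytes and between 3.44% and 17.9% in neurons, and miR-369-3p between 2.74% and 4.73% against between 6.48% and 10.3%. miR-300-3p made up between 3.74% and 4.73% in astrocytes and at most 3.32% in neurons. miR-434-3p took similar shares in most libraries, with medians of 11.9% (astrocytes), 13.8% (microglia) and 14.8% (neurons), and up to 30.1% in a neuronal library. Its ranges overlapped between astrocytes and neurons, as did those of miR-541-5p, miR-376a-3p, miR-136-3p, miR-382-5p and miR-381-3p. These are the 10 most abundant members and miR-376b-3p, and ranges were not compared for the others. The neuronal shares rested on 58, 581 and 95 cluster counts in the WT replicates and on 181, 108 and 138 in KIN.

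Both arms of Mir136 are members, and their balance differed between astrocytes and neurons as well. In astrocytes the 3p arm made up between 30.9% and 39.6% of the Mir136 counts over 6 libraries with between 69 and 285 such counts each. In neuronal WT replicate 2 it made up 24 of 29 counts, or 82.8%, and the other WT neuronal libraries held no Mir136 count. In neuronal KIN the 3p arm made up 6 of 8, 3 of 3 and 2 of 4 counts. The neuronal shares thus lay at 50% or more and above the astrocyte range, on few counts. In microglia the 3p share ran from 16.7% to 64.3% over 6 libraries with between 5 and 22 Mir136 counts each. It thus reached from below the astrocyte range into the neuronal one. Mir434 was read mostly from its 3p arm in each group, between 90.3% and 95.2% of its counts. Among 49 hairpins of the domain with counts for a pair of arms in the table, 34 gave more 3p and 15 more 5p counts. These shares carry counting error, and reads copied in amplification are not independent molecules.

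The comparison of KIN with WT asked whether the mutation changed the cluster in each fraction. Calls come from edgeR's quasi-likelihood test and need a Benjamini-Hochberg adjusted p no higher than 0.05, over all tested features, and a log2 fold change no smaller than 1 in size. In astrocytes, 37 of 46 members passed the filter on low counts, 32 of them in both genotypes. None was called, against 8.18% of all 5694 tested features and 13.4% of the mature miRNAs, all 56 of them outside the cluster. One member had an unadjusted p of at most 0.05. The median log2 fold change of the tested members was 0.15, against −0.19 over all features and 0.66 over other mature miRNAs. This median was 0.03 when libraries were scaled to their totals and −0.47, with 34 of 37 members negative, when TMM factors (trimmed mean of M values, edgeR's scaling between libraries) came from mature miRNAs alone, so no direction can be given for the cluster in astrocytes.

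The largest value was that of miR-494-3p, with 1.59, 1.26 and 0.607 CPM in WT, against 2.33, 3.07 and 3.49 in KIN. The genotypes did not overlap, but these are between 2 and 13 counts a library. Its log2 fold change was 1.47 ± 0.48 (SE, n = 3 and 3) with an edgeR adjusted p of 0.0689, between 0.0453 and 0.329 over the alternatives. It was the 1 member without overlap in this direction, where 10.8% of all features had none. miR-411-5p (0.90 ± 0.51) and miR-434-5p (0.65 ± 0.47) came next, with edgeR adjusted p of 0.242 and 0.351. At the other end stood miR-543-3p (−0.62 ± 0.46), miR-299a-5p (−0.39 ± 0.45) and miR-337-5p (−0.33 ± 0.40), with edgeR adjusted p between 0.365 and 0.597. The abundant members hardly differed from 0: miR-127-3p had 73.8, 163 and 86.8 CPM in WT and 117, 121 and 67.7 in KIN, so that its log2 fold change stood at 0.03 ± 0.33 (edgeR adjusted p = 0.963). miR-434-3p had 28, 81.6 and 36.7 CPM in WT and 65.7, 47.1 and 33.1 in KIN, a value of 0.09 ± 0.40 (edgeR adjusted p = 0.896). For both, WT replicate 2 was the highest of the 6 libraries and the genotypes overlapped, and both values turned negative with library totals or with factors from mature miRNA. Without WT replicate 2, 5 members were called higher in KIN (miR-494-3p, miR-411-5p, miR-487b-3p, miR-376a-3p and miR-381-3p), with log2 fold changes between 1.15 and 1.70. These were 5 of 34 tested members, where in the same fit 286 of 5363 features and 135 of 369 other mature miRNAs were called higher. The sum of the neuronal markers moved with this library. It was 3265 CPM in WT replicate 2, 1402 and 1510 in the other WT libraries, and 2074, 1773 and 1078 in KIN. In WT replicate 2, miR-124 alone had 2538 CPM. miR-128 and miR-132 were also highest there, but miR-138 had 90.6, 120 and 117 CPM in WT and 203, 171 and 168 in KIN. miR-129 had 40.9 CPM in WT replicate 2 and up to 44.9 in KIN. The part of these markers in the result was not tested.

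In microglia the cluster summed to a mean of 50.7 CPM in WT and 17.5 in KIN, 2.90-fold lower, but no member was called. Only 13 of 46 members passed the filter, 8 of them through the WT libraries alone and 3 in both genotypes, so most of those tested could hardly have had a positive value, and 25 members were at the floor in both genotypes. None of the 13 was called, against 4.35% of all 4940 tested features. An unadjusted p of at most 0.05 was reached by 7 members with edgeR and by 3 with DESeq2. The median log2 fold change was −1.40, all 13 values being negative, against −0.11 over all features and 0.50 over other mature miRNAs, and it stayed between −1.87 and −1.36 with other scalings, DESeq2, no filter and 1 fit of 18 libraries. In 6 of the 13, KIN lay below WT without overlap, where 18.5% of all features did.

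miR-127-3p had 16.1, 5.76 and 14.5 CPM in microglia WT and 1.91, 5.1 and 4.42 in KIN. Its log2 fold change of −1.40 ± 0.43 had an edgeR adjusted p of 0.0875, the smallest among the members and between 0.00846 and 0.299 over the alternatives. miR-434-3p had 6.91, 3.74 and 11.2 CPM in WT and 0.953, 3.01 and 2.79 in KIN, with a value of −1.42 ± 0.49 (edgeR adjusted p = 0.115). In both, the groups did not overlap, and WT replicate 2 was the lowest WT library and near the highest KIN one. miR-379-5p had 3.17, 0.288 and 1.36 CPM in WT and 0, 0.463 and 0 in KIN, a log2 fold change of −2.80 ± 1.14 that rested on few counts and overlapped. miR-495-3p (−1.91 ± 0.69) and miR-541-5p (−1.90 ± 0.80) were also among the 3 lowest, and the edgeR adjusted p of these 3 members lay between 0.126 and 0.173. Nearest to 0 were miR-433-3p (−0.16 ± 0.88), miR-369-3p (−0.39 ± 0.56) and miR-382-5p (−0.92 ± 0.93), with edgeR adjusted p between 0.628 and 0.948.

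The microglia result turned on WT replicate 2. Without this library 5 members were called lower in KIN: miR-127-3p, miR-434-3p, miR-379-5p, miR-495-3p and miR-541-5p, with log2 fold changes between −3.22 and −1.64 and edgeR adjusted p between 0.00846 and 0.0402. These were 5 of 12 tested members, where in the same fit 624 of 4856 features were called lower, against 145 of 4940 with all libraries. Without any other single library none was called, and without WT replicate 3 the median was −0.47. Some markers of other cells moved with the cluster in this fraction, and others did not. The neuronal markers summed to 171, 66.2 and 169 CPM in microglia WT and to 53.4, 61.2 and 59.4 in KIN. miR-9, which marks the neural lineage but not microglia, summed to 211, 82.3 and 245 CPM in WT and to 59.1, 68.6 and 60.1 in KIN. The epithelial markers (miR-200a, miR-200b, miR-429 and miR-183) summed to 61.9, 33.7 and 53.2 CPM in WT and to 4.13, 9.5 and 6.52 in KIN. In the sums of these 3 lists WT replicate 2 was the lowest WT library and the genotypes did not overlap, as for the cluster. Of the neuronal markers, however, only miR-124 separated the genotypes, with 100, 37.7 and 89.7 CPM in WT and 23.5, 26.4 and 28.2 in KIN. miR-128, miR-138, miR-132 and miR-129 each overlapped, and miR-138 had 15.3, 3.45 and 13.4 CPM in WT and 5.08, 8.34 and 6.05 in KIN. None of the 5 neuronal or 2 miR-9 markers was at 0 in a microglia library, while miR-183 was at 0 in 2 of the KIN libraries. Among oligodendrocyte, red blood cell and vessel markers, the most abundant of each list did not follow. miR-338-3p had 16.7, 17.0 and 18.0 CPM in WT and 21.3, 30.1 and 28.6 in KIN. miR-451a had 16.4, 19.3 and 20.5 against 25.7, 118 and 31.0, and miR-126a-3p 166, 202 and 188 against 86.7, 161 and 181. The vessel marker miR-145a-5p was lower in KIN without overlap, but highest in WT replicate 2. The other markers of these lists overlapped between genotypes. miR-219a-2-3p had 3.17, 2.30 and 3.54 CPM in WT and 1.27, 2.55 and 1.63 in KIN. miR-219a-5p had 12.4, 11.8 and 12.0 against 6.04, 10.4 and 13.0. miR-126a-5p had 49.5, 63.1 and 62.7 against 31.8, 47.0 and 55.2, and miR-143-3p 46.1, 75.7 and 66.3 against 22.2, 45.9 and 55.6. miR-486a-5p had 0.864, 2.88 and 1.36 against 2.86, 13.0 and 5.82. The part of all these markers in the result was not tested.

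In neurons 16 of 46 members passed the filter, 5 of them in both genotypes, with a median log2 fold change of −1.11. Another 9 passed only with the genotypes pooled, most of them through WT replicate 2 and a KIN library. miR-136-3p, for example, had 0, 24 and 0 counts in WT and 6, 3 and 2 in KIN. The negative sign of such values rested largely on WT replicate 2. No member was called, and no feature of all 4535 tested was called either (0%). With edgeR 4 members had an unadjusted p of at most 0.05 and with DESeq2 2. All 16 values were negative with a median of −1.25, against −0.11 over all features and 0.06 over other mature miRNAs. The median was −0.19 without WT replicate 2. miR-434-3p had 8.26, 89.4 and 9.82 CPM in WT and 10.2, 6.18 and 5.77 in KIN, and its log2 fold change stood at −2.28 ± 0.83 (edgeR adjusted p = 0.917). WT replicate 2 stood far above the other 5 libraries, among which the genotypes overlapped. miR-379-5p (−1.86 ± 0.76) and miR-329-3p (−1.74 ± 0.92) were the next lowest, and miR-381-3p (−0.18 ± 1.13), miR-541-5p (−0.54 ± 0.50) and miR-127-3p (−0.64 ± 0.63) lay nearest to 0, with edgeR adjusted p between 0.917 and 0.990. miR-379-5p was the 1 of 16 members whose KIN values, 1.28, 0.412 and 1.24 CPM, lay below all WT values, 5.78, 4.09 and 1.31 CPM, where 5.47% of all features had no overlap in this direction. In WT replicate 2 the oligodendrocyte markers summed to 111 CPM, against at most 11.5 in the other neuronal libraries, and the neuronal markers to 244, against at most 186. miR-124 alone did not stand out, with 158 CPM in WT replicate 2 and 162 in KIN replicate 1. The part of these markers in the result was not tested.

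**Figure D3:**
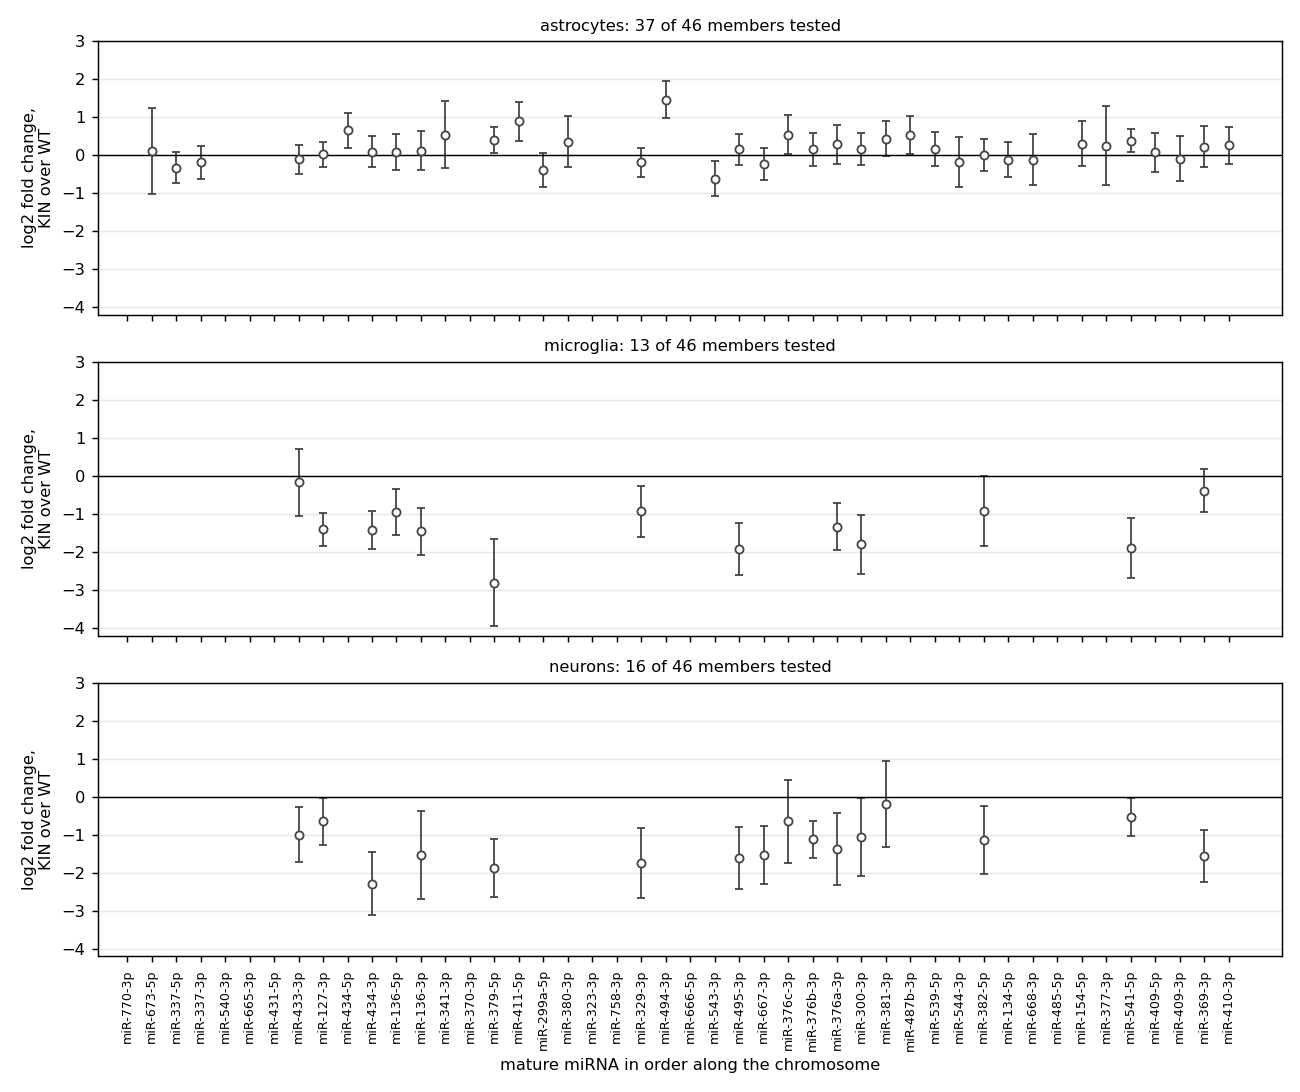
Log2 fold change of KIN over WT (edgeR, bars are standard errors) for the members tested in each fraction, in order along the chromosome; open points are members that were not called, which holds for each one shown. Values scatter around 0 in astrocytes and lie below 0 in microglia and neurons, where 13 and 16 of 46 members were tested.

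The interaction fit asked whether the KIN effect differed between microglia and astrocytes. Of 37 tested members none was called, where 0.312% of all 7053 features were; 9 members had an unadjusted p of at most 0.05 with edgeR and 7 with DESeq2. The median difference, microglia minus astrocytes, was −1.26 on the log2 scale, with 33 of 37 values negative, against −0.07 over all features. Only 13 of 46 members passed the filter in the microglia libraries, and 26 in WT and 36 in KIN were at the floor there. Most of these differences thus rest on few microglial counts. The lowest values were those of miR-410-3p (−4.30 ± 1.74), miR-134-5p (−3.90 ± 1.49) and miR-668-3p (−3.66 ± 1.90), whose microglia KIN libraries held no count, so that the size of these values depends on how zeros are treated. The highest were those of miR-539-5p (2.52 ± 1.55), miR-337-3p (1.04 ± 1.32) and miR-341-3p (0.83 ± 1.45), all at the floor in microglia. Their edgeR adjusted p lay between 0.344 and 0.932. Without microglia WT replicate 2 the effects of miR-541-5p and miR-379-5p were called as different (edgeR adjusted p of 0.0156 and 0.0368). With both glial WT libraries numbered 2 left out, 6 members were called, all more negative in microglia: miR-127-3p, miR-434-3p, miR-379-5p, miR-541-5p, miR-495-3p and miR-376a-3p, with values between −3.91 and −2.10. This joint exclusion was added after seeing the data. The shares of all features called in these 2 fits are not given here. In the microglia genotype fit, leaving out WT replicate 2 also raised the calls over all features, as given above.

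Between fractions, microglia held far less of the cluster than astrocytes. In WT, 30 of 32 tested members were called, all lower in microglia, where 31.5% of all 6397 features were called in either direction and 19.3% as lower. Of the 32, 21 passed the filter through the astrocyte libraries alone and so had to be lower, but the 11 that passed in both fractions were also called. Without astrocyte WT replicate 2, 17 of 27 tested members were called. The median of the tested members was −2.83, or −2.81 with the member at 0 set to its bound, against −0.22 over all features and −0.12 over other mature miRNAs. The summed level was 7.83-fold lower by CPM and 6.41-fold lower as a share of mature miRNA. miR-127-3p, at 73.8, 163 and 86.8 CPM in astrocytes and 16.1, 5.76 and 14.5 in microglia, did not overlap. Among the 10 largest called values, miR-381-3p (−3.73 ± 0.74), miR-136-5p (−3.46 ± 0.63), miR-487b-3p (−3.28 ± 0.67), miR-382-5p (−3.27 ± 0.65) and miR-300-3p (−3.18 ± 0.54) were counted above the floor in microglia, with edgeR adjusted p between 0.00141 and 0.00367. The other 5, miR-539-5p, miR-337-3p, miR-411-5p, miR-376c-3p and miR-299a-5p, were at the floor there. miR-539-5p had no microglial WT count and was at least 2.55-fold lower, taking 3 counts per library as the floor.

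In KIN all 33 tested members were called lower in microglia than in astrocytes, where 35.3% of all 4570 features were called and 21.2% as lower. The astrocyte libraries alone carried 30 of the 33 through the filter, and the 3 that passed in both fractions were called. The median was −4.23, or −4.13 with 4 members at their bound, against 0.05 over all features. The summed level was 23.2-fold lower by CPM. miR-541-5p had 23.6, 25.9 and 16.4 CPM in astrocytes and 0.318, 0.463 and 0.698 in microglia, or −5.23 ± 0.43 on the log2 scale (edgeR adjusted p = 1.42e-06). miR-410-3p, miR-411-5p, miR-134-5p and miR-668-3p had no count in microglia KIN and were at least 6.18-fold, 5.39-fold, 4.08-fold and 2.92-fold lower. The others among the 10 largest were miR-487b-3p (−5.75 ± 0.67), miR-379-5p (−5.39 ± 0.65), miR-381-3p (−5.23 ± 0.52), miR-300-3p (−5.16 ± 0.57) and miR-667-3p (−4.92 ± 0.74), all at the floor in microglia. The difference between the WT and the KIN contrast is the interaction above. The neuronal markers stood lower in microglia than in astrocytes in both genotypes, as given above, and their part in this difference was not tested.

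**Figure D4:**
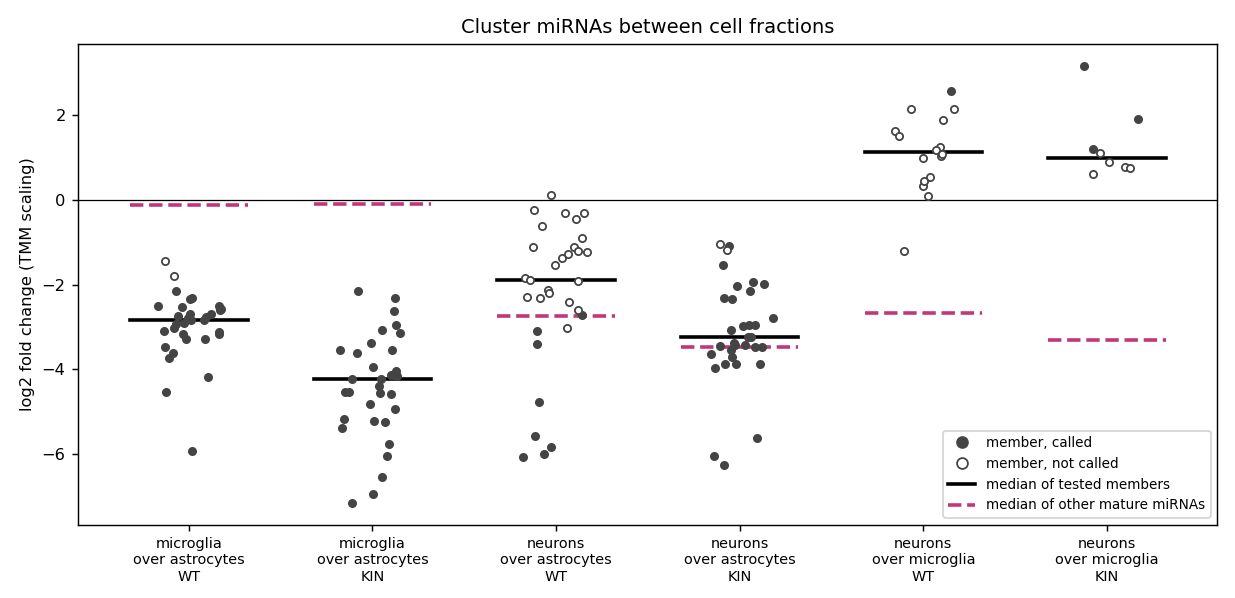
Log2 fold change of each tested member between fractions within a genotype (edgeR, TMM scaling); filled points were called, open points were not, black bars are medians of the tested members and dashed pink bars medians of the other mature miRNAs. The members lie far below the other miRNAs between microglia and astrocytes (−2.83 against −0.12 in WT) and above them between neurons and microglia (1.12 against −2.68 in WT).

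Neurons against astrocytes gave a result that depended on the scale. In WT, 8 of 32 tested members were called, all lower in neurons, where 28.7% of all 5916 features were called and 18.5% as lower. In a fit with the replicate number as a block, 17 were called lower. Of the 32, 26 passed the filter through astrocytes alone, and of the 6 that passed in both fractions 1 was called. The median was −1.90, or −1.34 with 4 members at their bound, and that of other mature miRNAs was −2.75, where 58.6% of all tested mature miRNAs were called lower. With TMM factors from mature miRNA, 6 members were called, 5 higher and 1 lower, and the median was 0.35. These factors shift the values of all features together, and the share of all features called with them is not given here. With the main scaling, 20 members were called without neuronal WT replicate 2, and between 5 and 7 without any other library. The called members were miR-136-5p (−4.78 ± 1.01), miR-381-3p (−3.41 ± 0.92), miR-127-3p (−3.11 ± 0.74) and miR-300-3p (−2.72 ± 0.80), with edgeR adjusted p between 0.0109 and 0.0356, and miR-337-3p, miR-299a-5p, miR-668-3p and miR-539-5p, which had no count in neuronal WT. Against the floor, the last 4 were at least 1.55-fold, 1.48-fold, 1.32-fold and 1.08-fold lower. miR-136-5p had 15.3, 45.7 and 13.4 CPM in astrocytes and 0, 2.56 and 0 in neurons.

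In KIN, 31 of 33 tested members were called, all lower in neurons than in astrocytes, where 46.3% of all 5001 features were called and 24.1% as lower. The astrocyte libraries alone carried 27 of the 33 through the filter, and the 6 that passed in both were called. The median of all 33 was −3.24 and that of the 6 was −2.56. The other mature miRNAs had a median of −3.47, and 83.1% of all tested mature miRNAs were called lower. With TMM factors from mature miRNA 7 members were called, 5 higher and 2 lower, and the share of all features called with these factors is again not given. miR-127-3p had 117, 121 and 67.7 CPM in astrocytes and 8.53, 9.06 and 9.9 in neurons (−3.72 ± 0.30, edgeR adjusted p = 9.76e-14), and the fractions did not overlap. The 10 largest also included miR-487b-3p (−6.25 ± 0.72), miR-136-5p (−5.61 ± 0.53), miR-381-3p (−3.96 ± 0.49), miR-300-3p (−3.88 ± 0.50), miR-668-3p, miR-539-5p, miR-434-5p and miR-409-5p. Also among them, miR-337-3p had no count in neuronal KIN and was at least 2.00-fold lower.

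Neurons against microglia gave few calls, all higher in neurons, in numbers that depended on the scale. In WT 1 of 16 tested members was called, where 28.0% of all 5166 features were called and 13.5% as higher. It was miR-376b-3p, with 4.95, 10.2 and 11.1 CPM in neurons and 0.864, 0.864 and 2.18 in microglia, or 2.55 ± 0.58 on the log2 scale (edgeR adjusted p = 0.00977, between 0.000103 and 0.0934 over the alternatives). The 2 fractions did not overlap, but this member passed the filter through the neuronal libraries alone, where it was high, and of the 5 that passed in both fractions none was called. In KIN 3 of 8 tested members were called higher, where 53.0% of all 4880 features were called and 26.7% as higher. They were miR-541-5p (3.15 ± 0.58), miR-376b-3p (1.90 ± 0.57) and miR-434-3p (1.19 ± 0.45), with edgeR adjusted p between 6.63e-05 and 0.0272. The first 2 passed the filter through neurons alone, and miR-434-3p was the 1 called among the 3 that passed in both. Its call was lost with no filter (edgeR adjusted p = 0.459), in 1 fit of 18 libraries (0.159), without microglia KIN replicate 1 (0.0679) and without neuronal KIN replicate 1 (0.143), and that of miR-376b-3p with no filter (0.160). miR-541-5p had 6.83, 3.71 and 9.48 CPM in neurons against 0.318, 0.463 and 0.698 in microglia. The medians of the tested members, 1.12 in WT and 0.99 in KIN, were of the opposite sign to those of other mature miRNAs, −2.68 and −3.30. With TMM factors from mature miRNA 13 of 16 members were called higher in WT and 8 of 8 in KIN, and with library totals 6 of 8 in KIN. A change of scaling shifts the values of all features together, and the shares of all features called with these scalings are not given here. In WT with the main scaling no member was called without microglia replicate 1. Without neuronal replicate 2, 3 members were called, miR-376b-3p higher and both arms of Mir136 lower.

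The other RNAs of the domain were compared with the miRNAs across the same libraries. The hairpin features of the members, which collect reads beyond the mature sequences, followed them: they summed to 134, 290 and 158 CPM in astrocyte WT and to 228, 211 and 130 in KIN. Rtl1, whose single counted feature lies opposite to members and was counted without regard to strand, did so too, with 59.5, 150 and 62.5 CPM in astrocyte WT and 114, 92.5 and 54.6 in KIN, so its reads and those of the opposite miRNAs cannot be told apart. Of other mature miRNAs of the domain, none was called between genotypes (15 were tested in astrocytes, 1 in microglia, 4 in neurons). Dio3, which encodes a deiodinase of thyroid hormone, had no count in any library. Dlk1, which encodes a membrane protein related to Notch ligands, had 88.4 CPM in neuronal WT replicate 2 and at most 10.7 in any other library.

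Rian and its snoRNAs stood in another order among the WT libraries than the miRNAs in astrocytes and neurons. Rian transcripts summed to 1541, 523 and 1558 CPM in astrocyte WT and to 393, 414 and 638 in KIN. In microglia they summed to 301, 43.5 and 287 in WT and to 17.2, 25.9 and 27.2 in KIN, and in neurons to 572, 352 and 602 in WT and to 398, 337 and 513 in KIN. WT replicate 2 was the lowest WT library for Rian in each fraction, whereas it was the highest for the miRNAs in astrocytes and neurons. In astrocytes the snoRNA features of the domain had 762, 249 and 820 CPM in WT and 210, 201 and 317 in KIN. Between genotypes 5 of 43 tested Rian transcripts were called lower in KIN in astrocytes, where 6.39% of all features were called lower, and 42 of the 43 values were negative with a median of −1.26. In microglia 9 of 18 were called lower, where 2.94% of all features were, and all 18 were negative with a median of −3.11. snoRNA features were called lower in 1 of 13 cases in astrocytes and in 2 of 9 in microglia. Microglia KIN libraries held only 283 Rian and 82 snoRNA counts, against 2247 and 1137 for microglia WT. Features that passed the filter through WT alone could hardly have had a positive value, and their number was not determined. With no filter, 13 of 47 Rian transcripts were called in microglia, with a median of −2.82. One Meg3 transcript was called lower in each of the 2 fractions. None of these lists had a call in neurons or in the interaction fit. Many of these transcripts and snoRNAs overlap and share reads, so the counts are not of separate observations. Without astrocyte WT replicate 2, 31 of 43 Rian transcripts were called in astrocytes, and without microglia WT replicate 2, 16 of 18 in microglia. Over all features, 1241 of 5363 and 624 of 4856 were called lower in these 2 fits, against 364 and 145 with all libraries. Leaving out any other astrocyte library left 0 calls among the Rian transcripts there. In microglia the count was 6 without KIN replicate 1 and 0 without WT replicate 1 or 3 or KIN replicate 2 or 3.

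**Figure D5:**
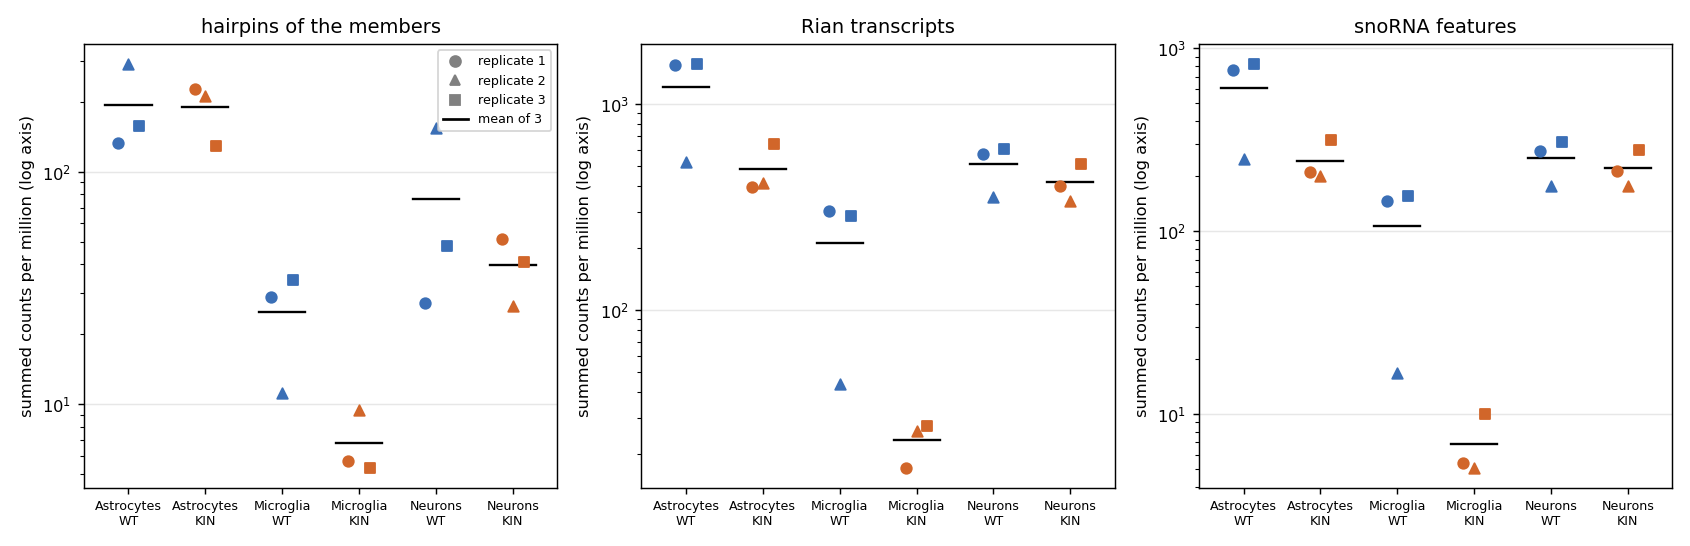
Summed CPM of the library total, on log axes, of the hairpin features of the members, of Rian transcripts and of the snoRNA features of the domain in the 18 libraries; symbols are replicates, blue is WT, orange is KIN and bars are means of 3. In astrocytes WT replicate 2 is the highest WT library for the hairpins (290 CPM) and the lowest for Rian (523 CPM) and the snoRNAs (249 CPM).

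The epithelial markers differed between genotypes in astrocytes too, as they did in microglia: they summed to 89.7, 34.4 and 101 CPM in astrocyte WT and to at most 3.07 in KIN. In neurons they summed to 37.2, 32.2 and 36 CPM in WT and to 2.56, 5.36 and 13.6 in KIN. WT replicate 2 was again the lowest WT library, as it was for Rian. Rian overlapped between genotypes in astrocytes and neurons, whereas these markers did not. The part of these markers in the differences of Rian was not tested.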

How the data were processed

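The authors trimmed small RNA reads with Cutadapt 4.6, aligned them with Bowtie2 2.4.4 in local mode in rounds (miRNA, tRNA, piRNA, Ensembl noncoding RNA, cDNA; mm39) and counted them with HTSeq 2.0.2. The deposited table holds whole-number counts per feature, unstranded and not normalized. The kit adds molecular identifiers, but whether they were collapsed is not given in the sources used here. The table's 36 other per-sample columns and the authors' comparison columns (fold changes and p-values) were not used. Library totals ran from 1211118 to 4316748 counts, and most members were near the floor outside astrocytes. The microglia libraries, with 3148211 to 4316748 counts, were about as deep as the astrocyte libraries, with 3144427 to 3980687. Values are CPM, counts scaled to the library total. Each comparison was fitted on its own groups with edgeR 4.0.16 (R 4.3.3): a floor of 5 counts in 2 or more libraries, TMM factors, quasi-likelihood test, Benjamini-Hochberg adjustment, called at adjusted p of at most 0.05 and absolute log2 fold change of at least 1, the study's limits. Alternatives were DESeq2 1.42.0, DESeq2 size factors, library totals, TMM factors from mature miRNA, no filter, 1 fit of 18 libraries, the replicate number as a block, shares of mature miRNA for the summed level, and leaving out each library. Leaving out the WT libraries numbered 2 together was added after seeing the data. The scripts were tested on simulated data. Same-numbered neuronal and astrocyte WT libraries deviated together (r = 0.149, 0.313 and 0.106), so that comparison is also given blocked. Coordinates are from GENCODE, sequences from the deposited table. Members and lists were chosen with earlier results of these data known. Named are the 10 members of highest mean CPM, the called members (at most 10 of largest change per comparison), and the 3 highest and 3 lowest in each genotype comparison and the interaction. Rian, snoRNA, Meg3, Rtl1, Dlk1, Dio3, hairpins and other mature miRNAs of the domain were described as lists.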

Additional observations from a re-analysis of the deposited data

How the results depend on the processing

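Between microglia and astrocytes the number of members called stayed within 1.5 times the reported one under each planned change of tool, scaling or filter, and leaving out 1 library gave between 17 (without astrocyte replicate 2) and 29 calls in WT and between 28 and 33 in KIN. Neurons against astrocytes gave 17 calls in WT both with the replicate block and without both WT libraries numbered 2, and between 5 and 20 with 1 library left out; in KIN it gave 7 with factors from mature miRNA and between 26 and 33 with 1 library left out. Neurons against microglia in WT gave 4 calls with DESeq2, 3 with its size factors, 13 with factors from mature miRNA, 4 in 1 fit of 18 libraries, 3 with the replicate block, 4 (1 higher, 3 lower) without both WT libraries numbered 2, and between 0 and 3 with 1 library left out. In KIN it gave 6 with library totals, 8 with factors from mature miRNA and between 2 and 3 with 1 library left out. KIN against WT gave 1 call in microglia with factors from mature miRNA and 1 in neurons without a filter; with 1 library left out it gave between 0 and 5 calls in astrocytes and in microglia and between 0 and 1 in neurons. The interaction gave 6 calls without both glial WT libraries numbered 2 and between 0 and 2 with 1 left out.

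In log2 units, the summed level of neurons against astrocytes moved from −1.94 to 0.39 in WT and from −2.76 to −0.27 in KIN as a share of mature miRNA, and that of neurons against microglia from 1.06 to 3.16 and from 1.82 to 3.99. With 1 library left out, KIN against WT ran from −0.17 to 0.48 in astrocytes, from −1.94 to −1.13 in microglia and from −1.23 to 0.09 in neurons. Microglia against astrocytes ran from −3.32 to −2.53 in WT and from −4.84 to −4.23 in KIN, neurons against astrocytes from −2.75 to −1.44 and from −3.02 to −2.57, and neurons against microglia from 0.25 to 1.56 and from 1.47 to 2.07. For named members, KIN against WT in astrocytes turned to −0.088 with library totals and −0.61 with factors from mature miRNA for miR-127-3p, and to −0.012 and −0.51 for miR-434-3p. With 1 library left out the former ran from −0.23 to 0.47 and the latter from −0.22 to 0.71. In microglia miR-433-3p turned to 0.076 with the replicate block and ran from −0.67 to 0.17 (without KIN replicate 3), and miR-369-3p from −0.80 to 0.067 (without WT replicate 3). In neurons miR-381-3p ran from −0.68 to 0.17 (without KIN replicate 2) and miR-127-3p from −1.02 to 0.63 (without WT replicate 2). In the interaction miR-539-5p ran from −0.15 (without microglia KIN replicate 2) to 3.08. The cause of these changes was not tested. In each comparison other than neurons against astrocytes in WT, a same-number correlation was at most 0.1 in at least 1 pair. Such a correlation cannot show whether the numbers pair the samples: it was 0.289, 0.346 and 0.043 in microglia against astrocytes in WT. Among the comparisons with such a correlation, the replicate block changed counts of called members by over 1.5 times only between neurons and microglia in WT. Rian transcripts called between genotypes numbered 11 in astrocytes and 0 in microglia with the block, 28 in astrocytes with factors from mature miRNA, 2 in astrocytes in 1 fit of 18 libraries, and 5 in microglia with library totals. Most members had 3 counts or fewer in each library of a microglia or neuronal group, which limits the precision of their values there.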
